A study of Nicotiana tabacum with 8 samples.

Results

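*PsaD*, *PsaE* and *PsaH* encode subunits of photosystem I, and their transcripts were followed here in leaves of tobacco with and without overexpression of *NtCBL5A*, a calcium sensor gene, and with and without salt. The 3 genes were taken by identifier, 3 of the 81378 genes counted: *PsaD* is Nitab4.5_0014875g0010, *PsaE* is Nitab4.5_0000385g0230 and *PsaH* is Nitab4.5_0000351g0060. They had been chosen by the study on measured values of these same libraries, as photosynthesis genes downregulated in the overexpressing line under salt stress. The study kept transcripts affected by overexpression only under salt, or by salt only in the overexpressing line. The lack of a call without salt, or in wild type, could therefore enter the choice as well. Only genes found differential in both experiments were considered by the study, so agreement between the experiments could also enter it. Their changes between genotypes and treatments are therefore given as a description without p-values, and where the outcome of the fit over all genes is stated for them it is no independent test. The difference in level between the experiments played no part in that choice, and its p-values are given.

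The plants were *Nicotiana tabacum* cultivar Zhongyan 100, either wild type (WT) or OE-2, a single transgenic line with constitutive expression of *NtCBL5A* that the study brought to homozygosity. Both were grown in hydroponics, and the salt groups S-WT and S-OE2 were sampled after 4 days with NaCl, raised in steps to 100 mM, beside the untreated groups C-WT and C-OE2. Each library pooled the blades of the fifth leaf, without the main vein, from 4 plants about 34 days after germination. There were 2 independent experiments with 1 library per group in each, hence 8 libraries and n = 2 per group. Each library held between 18674594 and 31672013 counts on genes. Nitab4.5_0007367g0040, which the sources used here do not pair with a symbol, was at 0 counts throughout the WT libraries, with 12311 to 18196 counts in those of OE2. It was picked by the labels, as the gene with 0 counts in WT whose lowest count in OE2 was highest. Its counts are therefore no independent check of the labels. Reads of 9 further photosynthesis genes were present in all 8 libraries. The lowest level was 51.4 CPM (counts scaled to a common library size), for *Lhcb3* in S-OE2 of Experiment 2. The highest was 7750 CPM, for *Lhcb4* in C-OE2 of Experiment 1. The selection of these 9 had already used the present libraries, and their presence is therefore no independent check of the tissue.

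Photosystem I is the pigment and protein complex of the thylakoid membrane that uses light to pass electrons from plastocyanin to ferredoxin. Its reaction centre proteins are encoded in the chloroplast, whereas PsaD, PsaE and PsaH are encoded in the nucleus, made in the cytosol and imported. PsaD and PsaE lie on the stromal face, where ferredoxin docks, and PsaH lies at the side of the complex, where in *Arabidopsis* it is needed for the binding of mobile antenna proteins during state transitions.

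On the Nitab-v4.5 assembly, *PsaD* lies on the minus strand from 7769 to 8383 of its scaffold. Its gene length of 615 bases equals that span, so the model has no intron. *PsaE* lies on the minus strand from 828798 to 830026, and its exons add up to 564 of 1229 bases. *PsaH* lies on the plus strand from 323278 to 324845, with 684 of 1568 bases in exons. No other listed gene overlapped any of them. Tobacco is an allotetraploid with copies of most genes from both parents. How the authors counted reads that fit several copies is not given in the sources used here, so a value may include or miss reads of a near-identical copy.

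All 3 transcripts were abundant. Per length, in FPKM, *PsaD* ranked from 16 to 40 among all genes across the 8 libraries, *PsaE* from 52 to 105 and *PsaH* from 155 to 434. The lowest count of any of them was 4329, for *PsaH* in S-OE2 of Experiment 2, where counting error alone is 1.52% of the value. Together they took 0.552% (C-WT) and 0.579% (C-OE2) of all counts without salt in Experiment 1, and 0.428% (S-WT) and 0.207% (S-OE2) with salt. In Experiment 2 these shares were 0.473%, 0.443%, 0.343% and 0.172%. The spread of interest is therefore that between libraries, and all levels below are CPM scaled by TMM (trimmed mean of M-values) factors unless said otherwise. These factors moved with the groups, from 0.755 in C-WT of Experiment 1 to 1.37 in S-OE2 of Experiment 2, so both scalings are given where they matter.

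*PsaD*, the stromal subunit that binds ferredoxin, reached 4630 CPM (C-WT) and 4650 CPM (C-OE2) without salt and 2767 CPM (S-WT) and 1089 CPM (S-OE2) with salt in Experiment 1. In Experiment 2 it had 3025, 2714, 1788 and 778 CPM in the same order. The S-OE2 libraries were the lowest in each experiment, the S-WT libraries came next, and C-WT and C-OE2 overlapped. As group values, *PsaD* had 3828 ± 1135 CPM (SD, n = 2) in C-WT and 3682 ± 1369 CPM (SD, n = 2) in C-OE2. Under salt the means were 2277 ± 692 CPM (SD, n = 2) for S-WT and 934 ± 220 CPM (SD, n = 2) for S-OE2.

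*PsaE*, its neighbour on the stromal face, had 1569 CPM (C-WT) and 1745 CPM (C-OE2) without salt and 1242 CPM (S-WT) and 465 CPM (S-OE2) with salt in Experiment 1. In Experiment 2 it had 1325, 1039, 815 and 343 CPM. The untreated groups changed places between the experiments, with C-OE2 above C-WT in Experiment 1 and below it in Experiment 2. *PsaE* had 1447 ± 173 CPM (SD, n = 2) in C-WT and 1392 ± 499 CPM (SD, n = 2) in C-OE2. Under salt the means were 1029 ± 302 CPM (SD, n = 2) for S-WT and 404 ± 85.7 CPM (SD, n = 2) for S-OE2.

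*PsaH*, the subunit at the antenna docking side, stood at 1112 CPM (C-WT) and 1053 CPM (C-OE2) without salt and 693 CPM (S-WT) and 234 CPM (S-OE2) with salt in Experiment 1. In Experiment 2 it had 552, 488, 340 and 132 CPM. Both experiments had the same descending order, C-WT first and S-OE2 last, but the S-WT library of Experiment 1 was higher than both untreated libraries of Experiment 2. *PsaH* had 832 ± 396 CPM (SD, n = 2) in C-WT and 771 ± 399 CPM (SD, n = 2) in C-OE2. Under salt the means were 517 ± 250 CPM (SD, n = 2) for S-WT and 183 ± 71.9 CPM (SD, n = 2) for S-OE2. Across the 8 libraries the highest CPM was 8.42 times the lowest for *PsaH*, 5.98 times for *PsaD* and 5.08 times for *PsaE*.

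**Figure D1:**
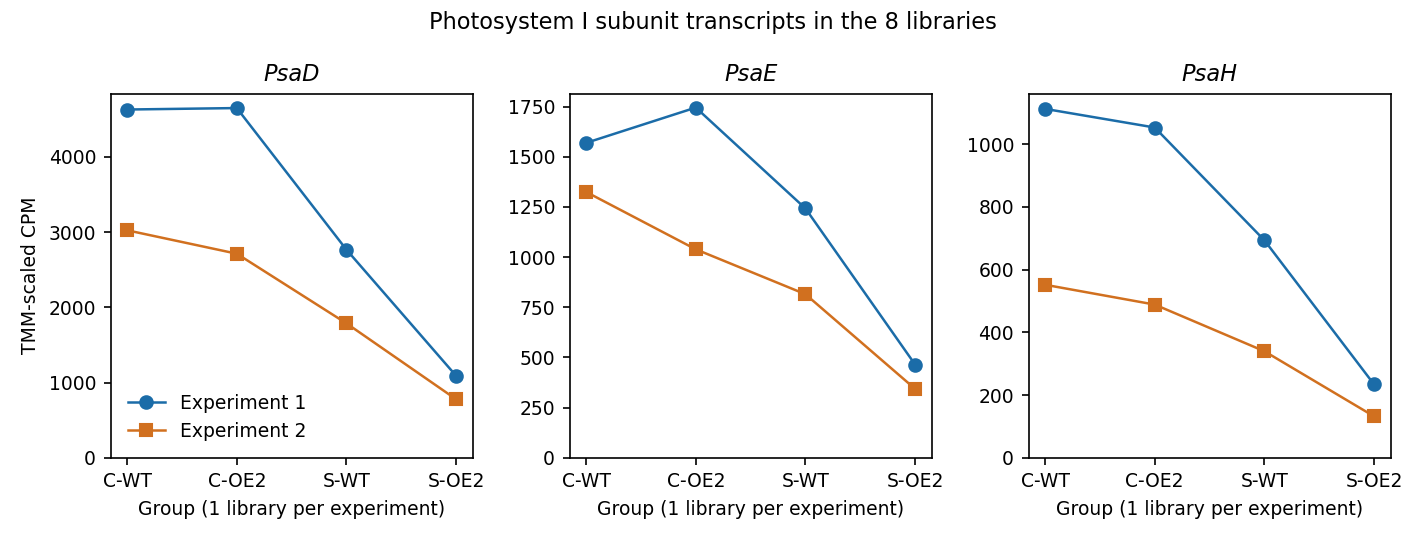
TMM-scaled CPM of *PsaD*, *PsaE* and *PsaH* (vertical axes, each from 0) in the 4 groups, with 1 point per library and a line joining the libraries of one experiment. Within each experiment S-OE2 is the lowest point, at 1089 and 778 CPM for *PsaD*, and the line of Experiment 2 lies below that of Experiment 1 in all 4 groups.

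For all 3 genes both S-OE2 libraries lay below the other 6 libraries, a pattern that 10.8% of the 44564 genes past the filter on low counts also had. Both S-WT libraries lay below both C-WT libraries for *PsaD* and *PsaE* but not for *PsaH*, whereas 13.1% of genes past the filter had this pattern. Expressed against C-WT of the same experiment, *PsaD* stood at 59.8% and 59.1% in S-WT and at 23.5% and 25.7% in S-OE2, for Experiments 1 and 2. *PsaH* stood at 62.3% and 61.6% in S-WT and at 21.0% and 24.0% in S-OE2. *PsaE* was less even in S-WT, with 79.2% and 61.5%, and stood at 29.6% and 25.9% in S-OE2. The steps from S-WT to S-OE2 thus went the same way in both experiments for each gene. Because the study considered only genes differential in both experiments, this agreement could follow from the choice and is no separate replication. The gap between C-WT and C-OE2 did not keep its direction for *PsaD* and *PsaE*. In leaf tissue, fewer photosynthetic cells and less transcript per cell cannot be told apart.

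The effect of overexpression under salt stress, S-WT against S-OE2, was large for each subunit. For *PsaH* the log2 fold change was -1.46 (standard error 0.19), a level 2.76-fold lower in S-OE2, with -1.57 in Experiment 1 and -1.36 in Experiment 2. *PsaE* had -1.33 (standard error 0.21), with -1.42 and -1.25 by experiment, and *PsaD* had -1.27 (standard error 0.20), with -1.34 and -1.20. Over all genes tested the median was 0.01. Scaled by total counts the log2 fold changes were -0.98, -1.04 and -1.18 for *PsaD*, *PsaE* and *PsaH*, with the median of all genes at 0.30. By edgeR's quasi-likelihood test over all genes, with an adjusted p below 0.05 as the rule, all 3 were called lower in S-OE2, as were 3.2% of genes tested. Because the study chose the genes on this comparison, the calls carry no further weight. They also depended on the paired design: without the experiment as a term, 0 of the 3 were called, and 0.00673% of genes were called lower, while the log2 fold changes ranged from -1.50 for *PsaH* to -1.29 for *PsaD*.

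Without salt, C-WT against C-OE2, the differences were small. The log2 fold change was -0.07 (standard error 0.19) for *PsaD*, -0.10 (standard error 0.21) for *PsaE* and -0.13 (standard error 0.19) for *PsaH*. *PsaE* had 0.15 in Experiment 1 and -0.35 in Experiment 2, and *PsaD* had 0.01 and -0.16, so the direction differed between the experiments. *PsaH* had -0.08 and -0.18. By edgeR 0 of the 3 genes were called lower, against 0.0202% of genes tested. None passed an unadjusted p below 0.05, which 2015 of the 44564 genes did in either direction, and DESeq2 called none of the 3 and 0.559% of genes in either direction. The study used this comparison in its choice of genes, so the lack of calls is no separate test. The standard errors are larger than each of the 3 joint estimates, though not than the -0.35 of *PsaE* in Experiment 2 alone.

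Salt in WT, C-WT against S-WT, went with lower levels of all 3 transcripts in both experiments. For *PsaD* the log2 fold change was -0.75 (standard error 0.20), with -0.74 and -0.76 by experiment, and *PsaH* had -0.69 (standard error 0.19), with -0.68 and -0.70. *PsaE* had -0.52 (standard error 0.21), with -0.34 and -0.70. Under total-count scaling *PsaD*, *PsaE* and *PsaH* had -0.48, -0.25 and -0.42, with the median of all genes at 0.30. By edgeR 0 of the 3 genes were called after adjustment, where 0.0494% of genes were called lower. At an unadjusted p below 0.05 all 3 passed, as did 4294 of the 44564 genes in either direction. With DESeq2, *PsaD* and *PsaH* were called, where 1% of the genes given an adjusted p were called lower. The study's choice of genes also drew on this comparison, so these counts are no separate test.

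Salt in OE-2, C-OE2 against S-OE2, showed the widest differences. *PsaH* changed in log2 terms by -2.03 (standard error 0.20), a level 4.08-fold lower, with -2.17 in Experiment 1 and -1.89 in Experiment 2. *PsaD* was 3.86-fold lower, with -1.95 (standard error 0.20) on the log2 scale and -2.09 and -1.80 by experiment. *PsaE* was 3.38-fold lower, with -1.76 (standard error 0.21) and -1.91 and -1.60 by experiment. All 3 were called lower by edgeR, as were 6.18% of genes, in a comparison on which they had been chosen and which shares its S-OE2 libraries with the one between S-WT and S-OE2. Under total-count scaling the log2 fold changes were -1.47, -1.27 and -1.55 for *PsaD*, *PsaE* and *PsaH*, with the median of all genes at 0.50. Without the term for the experiment 0 of the 3 were called, against 0.224% of genes, while the log2 fold changes were -1.98, -1.78 and -2.07 for *PsaD*, *PsaE* and *PsaH*.

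**Figure D2:**
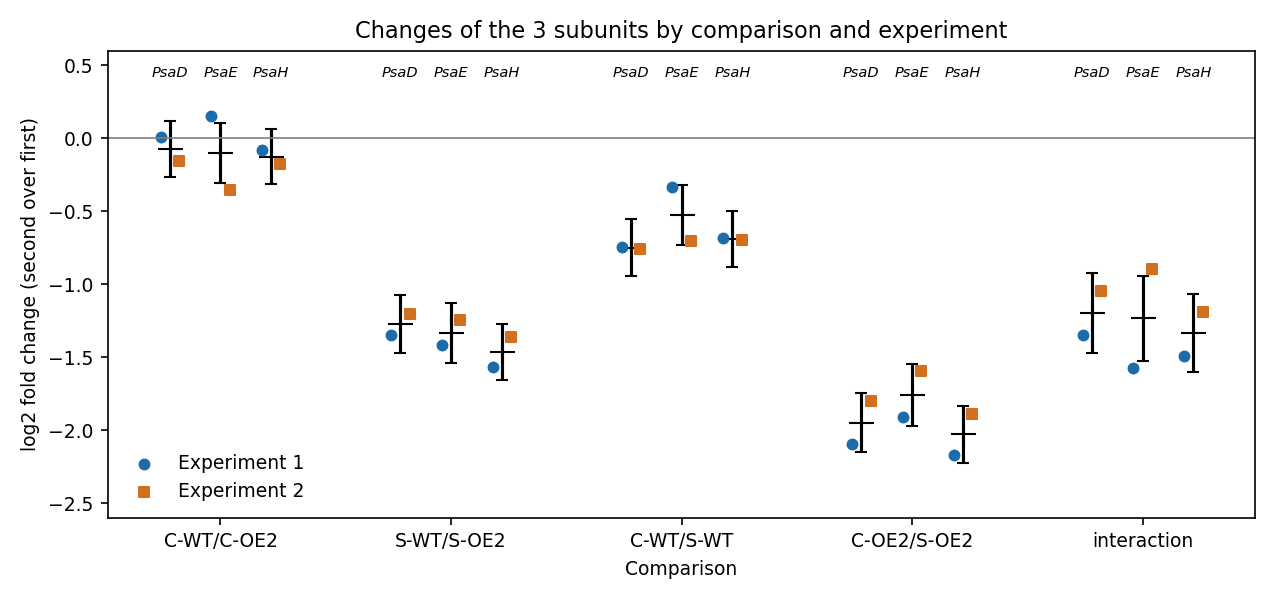
Log2 fold changes of the 3 subunits (vertical axis) in 4 comparisons, each given as first/second group, and the interaction of overexpression and salt. Black bars are the joint estimate with its standard error, and coloured points are the single experiments. The points of both comparisons that end in S-OE2 lie between -2.17 and -1.20, and those of C-WT/C-OE2 between -0.35 and 0.15.

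As an interaction, the change from WT to OE-2 without salt was subtracted from the same change with salt. It was -1.20 (standard error 0.28) for *PsaD*, -1.23 (standard error 0.29) for *PsaE* and -1.34 (standard error 0.27) for *PsaH*, on the log2 scale. *PsaE* varied most between the experiments, with -1.57 and -0.90, whereas *PsaD* had -1.35 and -1.04 and *PsaH* had -1.49 and -1.19. By edgeR 0 of the 3 interactions were called after adjustment, and 0.00224% of genes had a called negative interaction. All 3 passed an unadjusted p below 0.05, as did 4389 of the 44564 genes in either direction. DESeq2 called all 3, where it called 1.09% of genes in this direction. The interaction combines comparisons that share libraries and on which the genes were chosen, so neither count is a separate test of them.

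**Figure D3:**
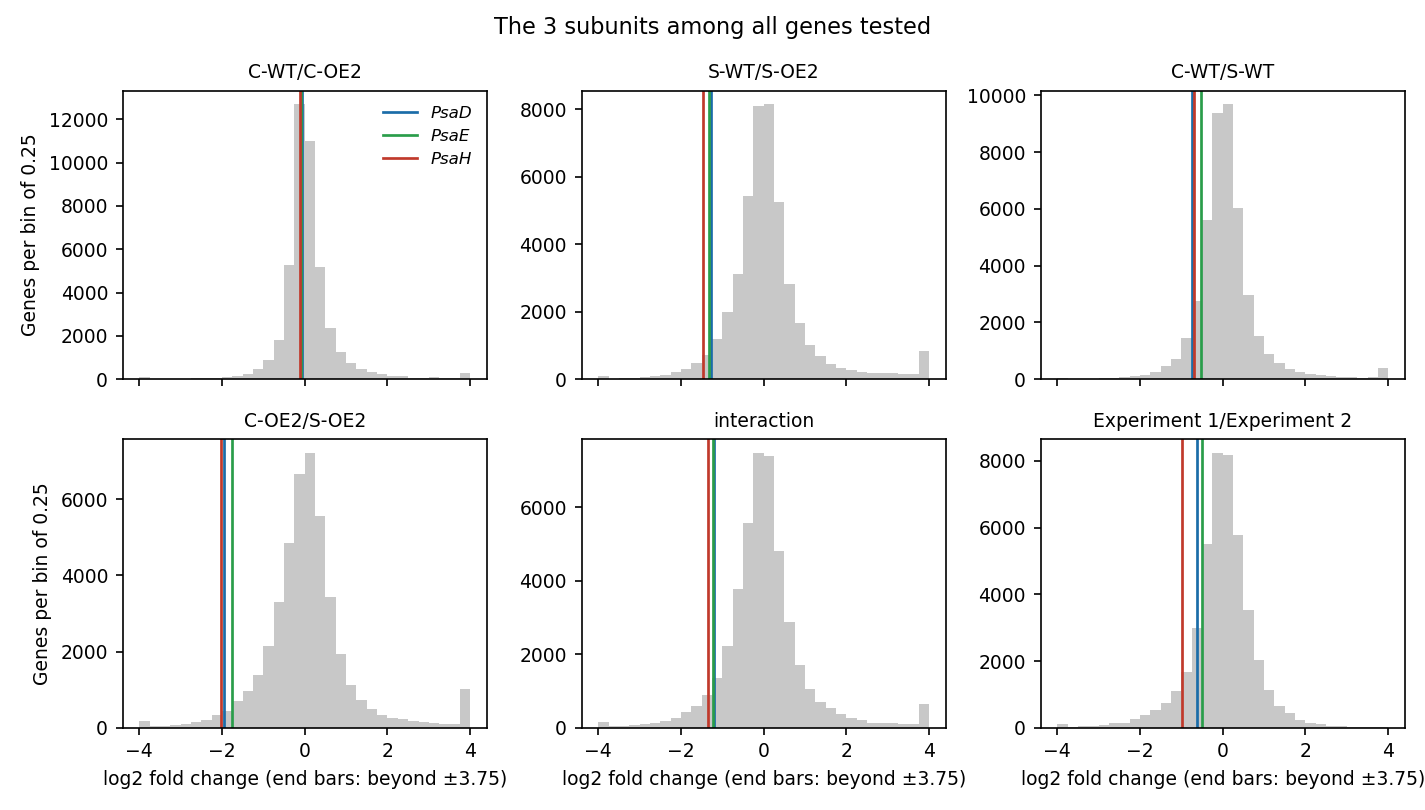
Numbers of genes (vertical axes, grey bars of width 0.25) by log2 fold change (horizontal axes) for all 44564 genes tested, with the 3 subunits as coloured lines and more extreme genes put in the end bars. The lines sit near 0 in C-WT/C-OE2, at -1.46 to -1.27 in S-WT/S-OE2 and at -2.03 to -1.76 in C-OE2/S-OE2.

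The 3 genes differed somewhat in the size of these changes. Between S-WT and S-OE2 the log2 fold change of *PsaH* was below that of *PsaD* by 0.22 in Experiment 1 and 0.16 in Experiment 2, and below that of *PsaE* by 0.15 and 0.11. Between C-OE2 and S-OE2 *PsaD* lay below *PsaE* by 0.18 and 0.21, and *PsaH* below *PsaE* by 0.26 and 0.29. These gaps kept their direction in both experiments, but they are close in size to the standard errors of the single changes, 0.19 to 0.21, and were not tested. The order of the genes was not the same in all comparisons. Between S-WT and S-OE2 *PsaD* lay above *PsaE* by 0.07 and 0.05. Between C-WT and S-WT *PsaH* lay above *PsaD* by 0.06 in both experiments, and *PsaH* minus *PsaE* was -0.35 and 0.0013. Across the 8 libraries the log2 CPM of *PsaD* and *PsaE* had a Pearson r of 0.990, *PsaD* and *PsaH* of 0.986, and *PsaE* and *PsaH* of 0.975. The points share groups, experiments and scaling, so these correlations are descriptive.

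The comparison that had not entered the choice of the genes was Experiment 2 against Experiment 1, over all 4 groups. All 3 transcripts were lower in Experiment 2 in 4 of 4 groups. *PsaH* differed by a log2 fold change of -0.99 (standard error 0.13), a 1.99-fold lower level, with adjusted p = 0.00244 by edgeR. Its single groups spanned -0.82 (S-OE2) to -1.11 (C-OE2). *PsaD* had -0.63 (standard error 0.14) with adjusted p = 0.0190 by edgeR, and its groups spanned -0.49 (S-OE2) to -0.78 (C-OE2). *PsaE* had -0.51 (standard error 0.15) with adjusted p = 0.0488 by edgeR, close to the threshold, and its groups ran from -0.24 in C-WT to -0.75 in C-OE2. All 3 genes were thus called lower in Experiment 2, where 7.42% of genes tested were.

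With any single library left out, the log2 fold change of *PsaH* ran from -1.05 to -0.95. That of *PsaE* stayed between -0.60 and -0.42, and that of *PsaD* between -0.67 and -0.57. The call of *PsaH* stood in all of these fits, whereas those of *PsaD* and *PsaE* did not. Each such fit leaves 1 library in a group, and a smaller share of all genes was called in each. The lost calls are therefore not particular to these genes. Under total-count scaling only *PsaH* was called, where 4.22% of genes were called lower. *PsaH* then had -0.65, and *PsaD* and *PsaE* had -0.28 and -0.16, with adjusted p = 0.133 and 0.410 by edgeR. That scaling moved the median of all genes between the experiments to 0.35 on the log2 scale, and relative to this median *PsaD* and *PsaE* stood at -0.63 and -0.51. Each experiment was 1 round of growth, so the experiment and whatever else differed between the rounds cannot be told apart, and the p-values describe these libraries.

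The ratios between the subunit transcripts also differed by experiment. In FPKM, which divides by gene length, *PsaD* in Experiment 1 was 4.63 (C-WT) and 4.91 (C-OE2) times *PsaH* without salt and 4.44 (S-WT) and 5.18 (S-OE2) times with salt. In Experiment 2 it was 6.10, 6.18, 5.85 and 6.55 times *PsaH* in the same order, so that the experiments did not overlap. *PsaE* was 1.71 to 2.41 times *PsaH* in Experiment 1 and 2.58 to 3.15 times in Experiment 2. The ratio of *PsaD* to *PsaE* ran from 2.01 to 2.71 over all 8 libraries and overlapped between the experiments. The mean difference of Experiment 2 from Experiment 1 was 0.37 ± 0.04 on the log2 scale (SD, n = 4 groups) for *PsaD* over *PsaH* and 0.48 ± 0.19 (SD, n = 4 groups) for *PsaE* over *PsaH*. Each was higher in 4 of 4 groups, and *PsaD* over *PsaE* was lower in 4 of 4, with a mean of -0.12 ± 0.17 (SD, n = 4 groups). An exact two-sided sign-flip permutation test within groups gave p = 0.125 for all 3 ratios, the smallest value that 4 pairs allow. The ratios were looked at after the levels were known.

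**Figure D4:**
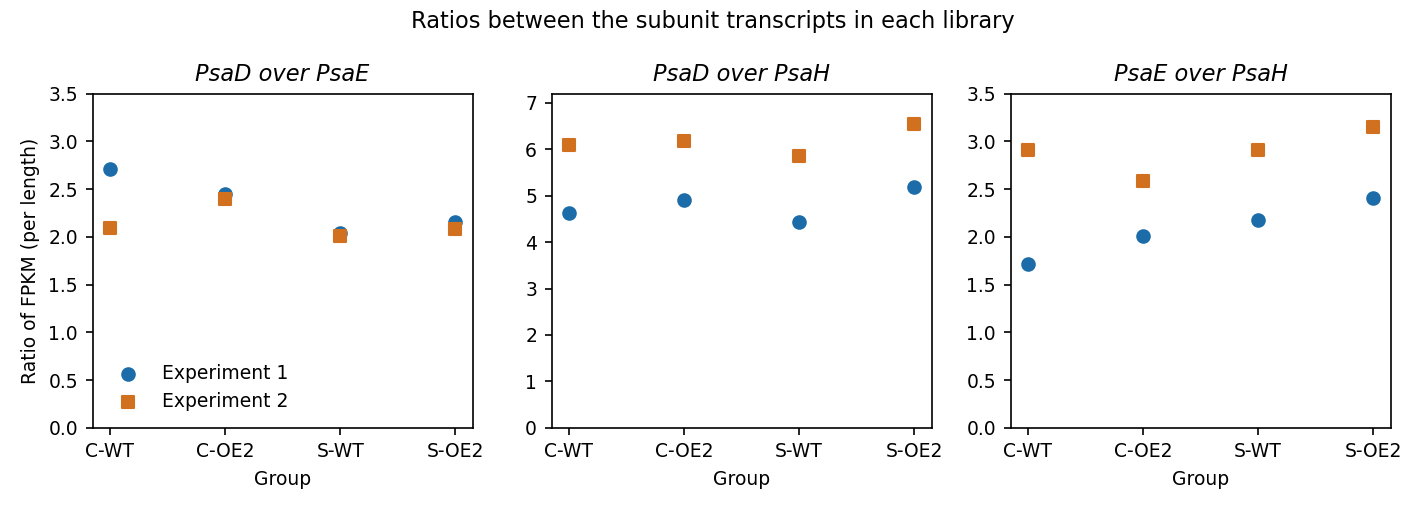
Ratios of FPKM between the subunit transcripts (vertical axes, from 0) in the 4 groups, with circles for Experiment 1 and squares for Experiment 2. For *PsaD* over *PsaH* the squares lie between 5.85 and 6.55, above all circles, which end at 5.18.

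To place the subunits in the photosynthetic chain, the 9 other photosynthesis genes with identifiers in the paper were read from the same fit. They comprise *PsbQ*, *PsbX* and *OEE1* of photosystem II, the antenna genes *Lhca3*, *Lhcb3* and *Lhcb4*, the electron carrier *Fd* (ferredoxin), an *F-ATPase delta subunit* and *GAPA* of the Calvin cycle, and the study chose them on these samples as well. Between S-WT and S-OE2 all 9 were called lower, as were 3.2% of all genes tested. Their median log2 fold change was -1.21, against -1.33 for the 3 subunits. *Lhcb3* had -2.37 and *Fd*, whose product docks at PsaD and PsaE, had -0.97. Between C-OE2 and S-OE2 all 9 were called lower, as were 6.18% of all genes, with a median of -1.72 against -1.95. In WT the median under salt was -0.54 against -0.69, with 0 of 9 called and 0.0494% of all genes called lower. Between the experiments 6 of the 9 were called lower in Experiment 2, as were 7.42% of all genes. *Fd*, the *F-ATPase delta subunit* and *GAPA* were not, with -0.41, -0.29 and -0.24.

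**Figure D5:**
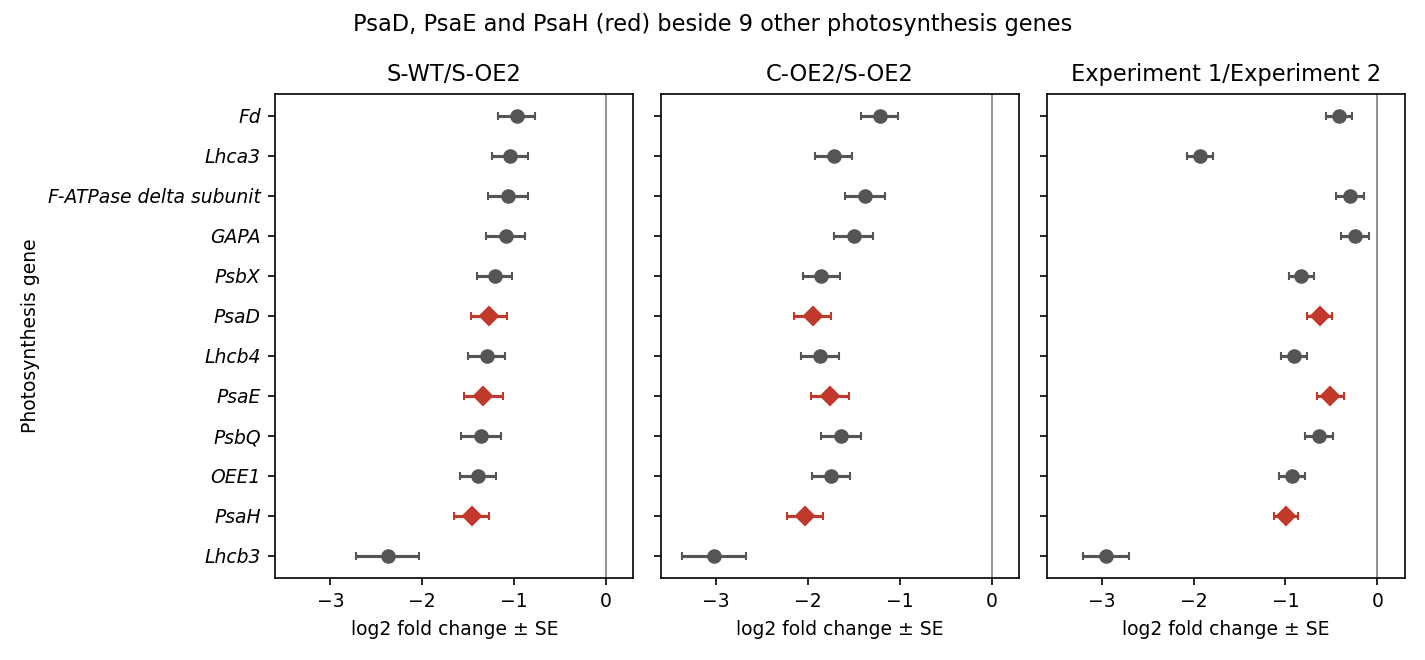
Log2 fold change with its standard error (horizontal axes) of *PsaD*, *PsaE* and *PsaH* (red diamonds) and 9 other photosynthesis genes (grey circles) in 3 comparisons. The red points range from -1.46 to -1.27 in S-WT/S-OE2, inside the span of -2.37 to -0.97 of the others.

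The genes whose levels moved most like the mean of the 3 subunits were sought among 13564 genes. Over the 8 libraries Nitab4.5_0000321g0050 had a Pearson r of 0.9987 and Nitab4.5_0018837g0020 of 0.9975 with that mean on the log2 CPM scale. Nitab4.5_0000321g0050 had 3682 CPM in C-WT and 905 CPM in S-OE2 of Experiment 1, and 2223 and 551 CPM in Experiment 2. The most opposite under TMM scaling were Nitab4.5_0003791g0030 and Nitab4.5_0000676g0100, with r of -0.990 and -0.988, but under total-count scaling they ranked only 83 and 139 from the most opposite, with r of -0.973 and -0.967. Nitab4.5_0003791g0030 had 14.4 and 27.3 CPM in C-WT and S-OE2 of Experiment 1, and 17.7 and 28.9 CPM in Experiment 2. The deposited table does not pair these identifiers with gene names. Of the 9 other photosynthesis genes, *Lhcb4* was closest to the subunits, with r = 0.993, and *Lhca3* was farthest, with r = 0.868.

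The nearest listed genes on the same scaffolds had far fewer reads. Beside *PsaE*, the gene 651 bases away on the opposite strand had 33.7 to 92.9 CPM, and its log2 fold change between S-WT and S-OE2 was -0.67, with adjusted p = 0.0645 by edgeR. On its other side the next gene lay 160824 bases away and had 0 counts in all libraries. The neighbours of *PsaH*, 622 and 334 bases away, had at most 6.31 and 1.09 CPM, and the neighbour of *PsaD*, 1505 bases away, had at most 3.79 CPM. None of the 4 neighbours with enough counts for the test was called between S-WT and S-OE2 or between C-OE2 and S-OE2. The smallest of their adjusted p-values there by edgeR was 0.0645. Of all genes, 7.38% and 11.9% were called in either direction in these comparisons. With only 4 neighbours, no contrast with the subunits is drawn from this.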

How the data were processed

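RNA was isolated from pooled leaf blades and sequenced by the study. Per the labels and the paper's methods, the authors aligned reads with HISAT2 2.0.5 to the Nitab-v4.5 tobacco assembly, assembled further transcripts with StringTie 1.3.3b and counted reads per gene with featureCounts 1.5.0-p3. They deposited raw counts and FPKM values, which the authors calculated from counts and gene length; how these were scaled between libraries is not given in the sources used here. FPKM served only for levels and ratios between genes, and as 1 alternative.

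Counts of all 81378 genes were analysed in R 4.3.3 with edgeR 4.0.16: filterByExpr kept 44564 genes, TMM factors were used, and glmQLFit and glmQLFTest were run over all 8 libraries with group and experiment as terms. P-values were adjusted over all genes kept (Benjamini-Hochberg), and 0.05 was the threshold. Standard errors were derived as the size of a log2 fold change over the square root of its F. The code was tested on simulated data. Alternatives were DESeq2 1.42.0, total-count scaling, FPKM ratios, leaving out each library, fitting only the 4 libraries compared, dropping the experiment term and dropping the filter. The experiments pair the libraries, since the paper names the number in each label as its independent experiment. Differences between experiments correlated across genes with r from 0.371 to 0.510 for the 6 pairs of groups. Labels do not say more about replicates, so p-values measure the spread between these libraries.

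The genes and lists were chosen with earlier results of these data known. Named are the 3 subunits, 9 other photosynthesis genes with identifiers, and 4 genes by correlation with the subunits' mean log2 CPM. These are the 2 most positively and the 2 most negatively correlated, among genes with a mean of at least 10 CPM. Genes with a count of 0 in any library were left out of that ranking, a choice made after the files were seen.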

Additional observations from a re-analysis of the deposited data

How the results depend on the processing

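Calls for *PsaD*, *PsaE* and *PsaH* between S-WT and S-OE2 stayed at 3 of 3 under DESeq2, no filter, total-count scaling and the 4 libraries alone. In either direction 9.79%, 7.65%, 8.58% and 7.72% of genes given an adjusted p were called there. Between C-OE2 and S-OE2 they also stayed at 3 of 3, with 13.9%, 10.7%, 21.9% and 12.4% of genes called. With any library left out, log2 fold changes stayed from -1.56 to -1.18 and from -2.13 to -1.59, respectively. With no replicate block the calls in both comparisons went to 0, with 0.0112% and 0.59% of genes called. The cause was not tested. DESeq2 raised the calls for salt in WT from 0 to 2, while the share of genes called in either direction rose from 0.0875% to 1.55%. For the interaction it raised them from 0 to 3, while that share rose from 0.0157% to 2.18%. Calls between the experiments were 3 with DESeq2, 3 with no filter and 1 with total-count scaling. In either direction 17.1%, 12.5% and 25.3% of genes were called there. Leaving out single libraries, which also leaves fewer samples, gave log2 fold changes from -1.05 to -0.42 over the 3 genes. Between C-WT and C-OE2 the sign was not stable: *PsaD* had 0.0040 with total-count scaling, and leaving out single libraries gave -0.173 to 0.0332 for *PsaD* and -0.274 to 0.0862 for *PsaE*. Total-count scaling moved the median of all genes to 0.30 between S-WT and S-OE2, 0.50 between C-OE2 and S-OE2 and 0.17 for the interaction. Relative to these medians *PsaD* stood at -1.28, -1.97 and -1.16 with either scaling. FPKM ratios moved *PsaD* and *PsaH* under salt in WT to -0.81 and -0.75. With total-count scaling the 2 genes most like the subunits kept ranks 1 and 2, and the 2 most opposite went to ranks 83 and 139. With counts of 4329 or more, counting error was small beside the spread between libraries, and the precision was set by 2 libraries per group.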

Other observations

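*Lhca3* (Nitab4.5_0000923g0200), an antenna protein of photosystem I itself, differed more between the experiments than the subunits it accompanies. Its log2 fold change from Experiment 1 to Experiment 2 was -1.93 (standard error 0.14, adjusted p = 1.38e-04 by edgeR), with -1.71 in C-WT and -2.03 in both OE2 groups, against -0.24 to -1.11 for *PsaD*, *PsaE* and *PsaH* in the single groups. *Lhcb3* (Nitab4.5_0012832g0010), an antenna protein of photosystem II, had -2.95 (standard error 0.25, adjusted p = 2.82e-04 by edgeR) and ranged from -2.14 in C-WT to -3.61 in S-OE2. In contrast *GAPA* had -0.35 in C-WT and 0.07 in S-OE2. Whether these genes differ from the subunits in this respect was not tested, and the comparison was chosen after the values were seen.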
